A study of Mus musculus with 8 samples.

Results

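Primary microglia of C57BL/6 mice treated with Ecrg4(133-148), a stretch of the protein Ecrg4 carried on an Fc fragment, were compared with microglia treated with Fc alone. The comparison uses 4 of the 8 arrays of the study, 2 of each group. Each Ecrg4(133-148) array was set against the Fc array with the same set number in its title, which gives 1 pair in set 1 and 1 pair in set 2. Both proteins were recombinant, were given at 20 µg/ml and acted for 3 h. The other 4 arrays hold cells given Fc-fused Ecrg4(71-132), also at 20 µg/ml, or PBS without protein, each in duplicate and for the same 3 h. They enter the estimate of spread and are quoted where they place a level. The age, sex and number of the mice, and whether the sets were separate cultures, are not given in the sources used here. Every p-value therefore measures only the spread between these arrays, which may be technical.

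Ecrg4 is a secreted precursor protein whose processing releases smaller peptides, and residues 133 to 148 lie near its carboxyl end. Microglia are the resident macrophages of the brain. When they sense a danger signal, NF-kB and AP-1 transcription factors switch on cytokine, chemokine and protease genes within hours, while interferons drive a separate group of antiviral genes. Fc, the constant tail of an antibody, binds Fc receptors on these cells, so the Fc arrays carry whatever the carrier itself does, and the fragment is read as the difference from it.

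Total RNA was labelled with Cy3 and hybridised to 1-colour Agilent arrays. Levels are log2 spot signals with the 75th percentile of each array at 0, and a difference of 1 on this scale is 2-fold. A gene is called measured on an array where its probe was well above background. Between 24213 and 29439 probes were well above background on each of the 8 arrays, and the signal at the 75th percentile lay between 494.6 and 809.3. All 12 microglia and macrophage markers were among the 19117 genes kept, and 11 were measured on all 4 arrays. Their summed linear signal was 804 and 874 with Ecrg4(133-148) in sets 1 and 2, against 841 and 912 with Fc. The exception, Tmem119, was measured in set 1 only, at -2.05 with Ecrg4(133-148) against -2.06 with Fc, and was not well above background in set 2. The sums do not show the gap between sets of Cx3cr1, which was measured on all 4 arrays. Cx3cr1 was at 4.71 and -1.45 with Ecrg4(133-148) in sets 1 and 2, against 4.71 and -2.36 with Fc. As these are bulk RNA samples, fewer cells of a type and less RNA per cell cannot be told apart.

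The sets stood far apart. Across genes the Ecrg4(133-148) and Fc arrays correlated at 0.997 in set 1 and 0.989 in set 2, but arrays of different sets correlated at only 0.957 to 0.962. Between its own arrays, Ecrg4(133-148) had 3259 genes more than 2-fold apart and Fc had 3273. Each set filled its own column of the single slide, and each treatment had the same row in both columns, so set cannot be told apart from slide column, nor treatment from row. Results are therefore given set by set. Within a set there is 1 array per group and no test is possible, and 2 arrays against 2 cannot give an exact permutation p below 0.333.

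Over all genes, no difference between Ecrg4(133-148) and Fc passed the test. In limma 0% of 19117 genes were called (smallest adjusted p = 1), with 88 at an unadjusted p under 0.05. With the set as a replicate block it again called 0% (smallest adjusted p = 0.836), with 1006 at an unadjusted p under 0.05. Every gene below therefore missed the threshold, and the directions and sizes describe these 4 arrays. The differences in the sets were loosely related across genes (Pearson r = 0.14, Spearman rho = 0.25, over 19117 genes that share the same 4 arrays and are not independent replicates). Some 28.5% of genes were higher with Ecrg4(133-148) in both sets and 30.6% were lower in both.

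**Figure D1:**
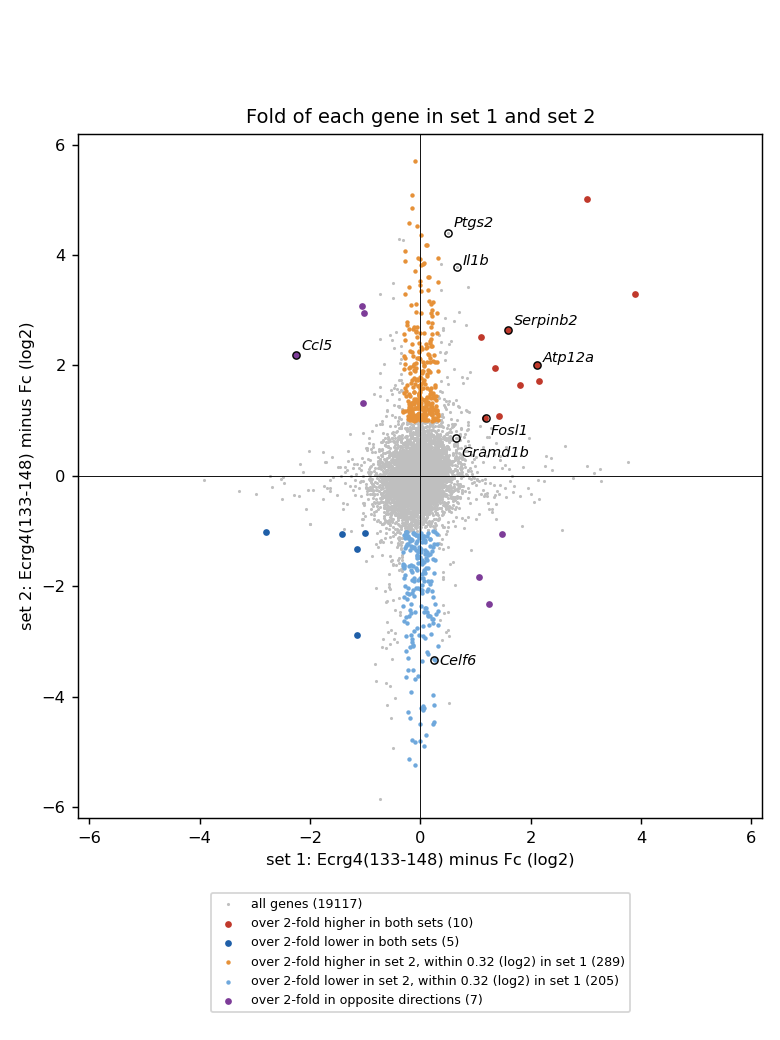
Each point is 1 of 19117 genes, placed by the log2 difference Ecrg4(133-148) minus Fc in set 1 (horizontal) and in set 2 (vertical). The cloud is drawn out along the vertical axis, where 289 and 205 genes lie beyond 2-fold in set 2 and within 0.32 of 0 in set 1, while 10 and 5 genes lie beyond 2-fold in the same direction in both sets.

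Few genes moved alike in both sets by more than 2-fold: 10 were higher (0.0523% of all genes) and 5 were lower (0.0262%). The 10 include Serpinb2, Fosl1, Cass4, Bcl6b and Atp12a, and the other 5 have no symbol in the gene table. Of the 10, only Serpinb2 and Fosl1 were measured on all 4 arrays, and none of the 5 lower genes was.

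Serpinb2 encodes plasminogen activator inhibitor 2, a serpin made by activated macrophages that blocks urokinase. It stood at 3.47 and 4.09 with Ecrg4(133-148) in sets 1 and 2, against 1.89 and 1.45 with Fc. Both fragment arrays lay above both Fc arrays, as held for 7.61% of all genes. The mean level was 3.78 ± 0.44 with Ecrg4(133-148) and 1.67 ± 0.31 with Fc (SD, n = 2 each), a log2 difference of 2.11 (SE 0.37, limma, adjusted p = 1). In set 2 the PBS array was at 1.21, and the Ecrg4(71-132) arrays stood at 4.16 and 5.03 in sets 1 and 2.

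Fosl1 encodes Fra-1, an AP-1 subunit. Its level was -0.28 and -2.31 with Ecrg4(133-148), against -1.45 and -3.35 with Fc. The groups overlapped, because every set 1 array lay above every set 2 array, yet the differences were close, at 1.18 in set 1 and 1.04 in set 2. The mean difference was 1.11 with an SE of 1.26 in the fit without the set and 0.38 with it (limma, adjusted p = 1 and 0.836). With Ecrg4(71-132) Fosl1 stood at -0.38 and -1.55.

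Gramd1b encodes an endoplasmic reticulum protein that moves cholesterol in from the plasma membrane. Its level was 3.32 and 3.21 with Ecrg4(133-148), against 2.67 and 2.52 with Fc, so the groups did not overlap. The difference was 0.65 in set 1 and 0.69 in set 2, below 2-fold but nearly equal, with a mean of 0.67 (SE 0.19, limma, adjusted p = 1). With PBS Gramd1b stood at 2.54 and 2.55, and with Ecrg4(71-132) at 3.36 and 3.80.

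**Figure D2:**
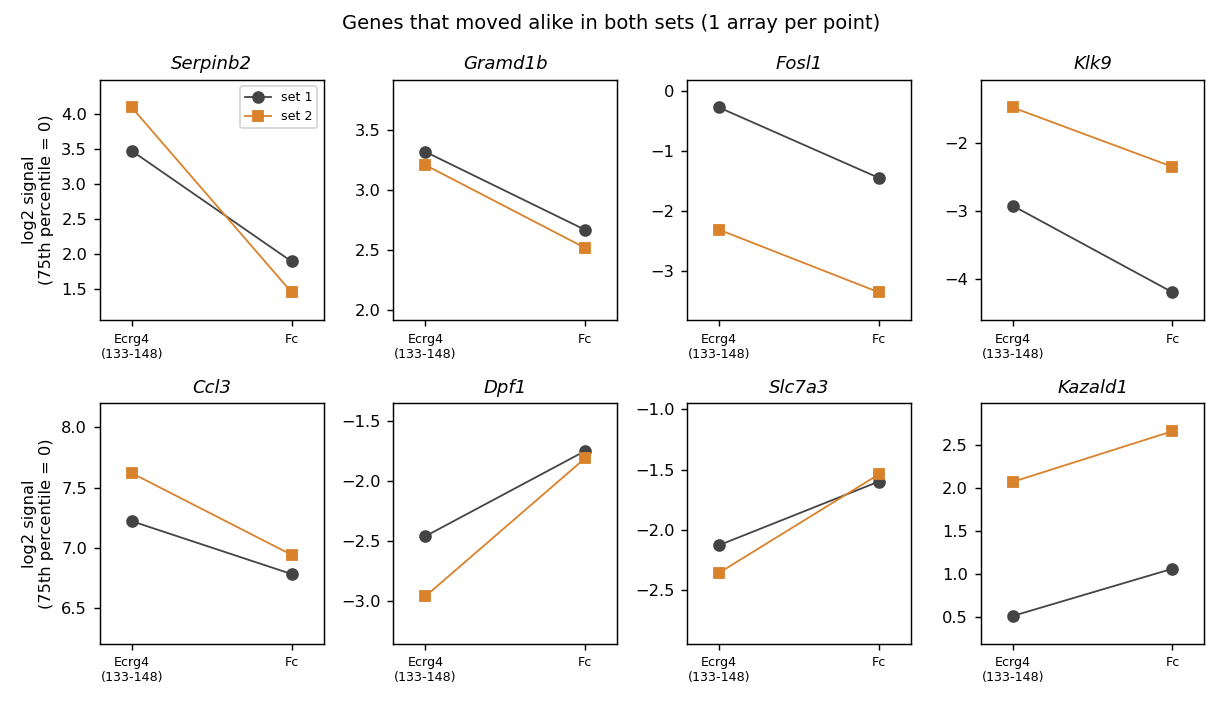
Log2 level of 8 genes on each Ecrg4(133-148) and Fc array, 1 array per point, with the arrays of a set joined by a line. Serpinb2, Gramd1b, Fosl1, Klk9 and Ccl3 were higher with Ecrg4(133-148) in both sets and Dpf1, Slc7a3 and Kazald1 were lower in both. For Fosl1, Klk9 and Kazald1 the gap between sets exceeds the gap between treatments.

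The remaining symbols past 2-fold in both sets were dim. Cass4, a scaffold protein of focal adhesions, was at -2.66 and -3.07 with Ecrg4(133-148), against -4.09 and -4.16 with Fc, where the set 2 array did not clear background. Bcl6b, a transcriptional repressor, was at -2.23 and -3.62 against -3.58 and -5.58, and the last of these was also not well above background. Atp12a, a proton pump subunit, was measured on no Fc array and was at least 1.36-fold higher with Ecrg4(133-148). On the lower side, Ano1, a calcium-activated chloride channel, was measured on both Fc arrays and on neither fragment array, at least 1.61-fold lower. Lrrc14b was measured on 1 Fc array and on neither fragment array, and its bound was 1.09-fold lower.

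With the threshold lowered to 1.5-fold and all 4 arrays required to be well above background, a choice made after the values were seen, 30 genes were higher in both sets and 28 lower. Of these, 26 and 20 have a symbol. The higher group also holds Il1b, Cxcl2 and Cxcl3, described below, whose set 2 differences far exceeded those in set 1. Il1rn, the interleukin-1 receptor antagonist, was at 1.11 and 2.77 with Ecrg4(133-148), against -0.08 and 2.07 with Fc. Ch25h, which makes 25-hydroxycholesterol, was at 6.17 and 5.44 against 5.32 and 4.26, with no overlap between the groups.

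Some of the genes in that higher group act at the cell surface or attract other cells. C5ar1, the receptor for the complement fragment C5a, differed by 0.71 in set 1 and 0.66 in set 2. The calcium-activated potassium channel gene Kcnn4 differed by 0.86 and 0.85, and Sdc1, a heparan sulphate proteoglycan, by 0.86 and 0.92. Il1rl1, which encodes the interleukin-33 receptor, differed by 0.73 and 0.86. For the transcription factor gene Irf4 the values were 0.72 and 0.76, and for F3, tissue factor, 0.66 and 1.0. The monocyte chemoattractants Ccl7 and Ccl12 differed by 0.74 and 0.60 in set 1 and by 1.15 and 0.91 in set 2. Il1b, Cxcl2, Cxcl3, Il1rn, Ch25h, Ccl7 and Ccl12 were named by the naming rule or as list members. The other genes in this paragraph and the one before it were chosen after their values were seen.

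Klk9 and Ccl3 were among the higher genes with the smallest limma p-values with the set as a block. That choice favours small errors in this fit. Klk9, a kallikrein-related protease gene, was at -2.92 and -1.48 with Ecrg4(133-148), against -4.19 and -2.35 with Fc, and its mean difference of 1.07 had an SE of 0.11 with the set as a block (limma, adjusted p = 0.836). Ccl3, a chemokine for monocytes, was at 7.22 and 7.62 against 6.78 and 6.94, a mean difference of 0.56. Its groups did not overlap.

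Of the genes lower in both sets, several were steady across the sets. Dpf1, Slc7a3 and Rhbdl1 were named for small limma p-values, which favours such steadiness. Dpf1, a subunit of BAF chromatin remodelling complexes, was at -2.46 and -2.96 with Ecrg4(133-148), against -1.75 and -1.81 with Fc. The cationic amino acid transporter gene Slc7a3 was at -2.13 and -2.36 against -1.60 and -1.54, and Rhbdl1, a rhomboid-like gene, at -2.83 and -2.58 against -2.18 and -2.0. In these 3 genes both fragment arrays lay below both Fc arrays, as held for 6.54% of all genes. Klhl24, a substrate adaptor of a ubiquitin ligase, was lower by -1.06 in set 1 and -0.89 in set 2, and Trp53inp1, a p53 target, by -0.62 and -0.69. The short-chain fatty acid receptor gene Ffar2 had differences of -0.60 and -0.82, and Rnf144b, a ubiquitin ligase gene, -0.59 and -0.86. The last 4 genes were also chosen after their values were seen.

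Among the genes kept, more passed 2-fold in set 2 than in set 1. In set 2, 405 genes were more than 2-fold higher with Ecrg4(133-148) (2.12%) and 319 were lower (1.67%), against 86 (0.450%) and 85 (0.445%) in set 1. A gene was said to move in set 2 only where its log2 difference in set 1 was within 0.32 of 0. Of the 405, 289 met that limit, 56 moved the same way in set 1 by more than 0.32 but less than 2-fold, 10 by more than 2-fold, and 50 moved the opposite way by more than 0.32. Of the 319, these numbers were 205, 82, 5 and 27. The genes that moved in set 2 only made up 1.51% of all genes on the higher side and 1.07% on the lower side. The mirror counts, for genes that moved in set 1 only, were 36 (0.188%) and 47 (0.246%). Of the set 2 genes, 136 of 289 and 80 of 205 were measured on all 4 arrays, as were 21 and 15 of the set 1 genes. The order of the sets depends on the filter on dim probes: with no filter, 1037 and 687 genes moved in set 1 only, against 537 and 487 in set 2 only.

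Of the 289 genes higher in set 2 only, the set 2 Ecrg4(133-148) array lay more than 2-fold above the other 3 set 2 arrays in 108 (37.4%). In 117 (40.5%) the set 2 Ecrg4(71-132) array lay more than 2-fold above PBS. Choosing these 289 by the set 2 Ecrg4(133-148) array against Fc favours the first count, and neither share was counted over all genes. The 10 described next had the largest set 2 differences among those with a symbol that were measured on all 4 arrays. Il6, Acod1, Cd69, Tnfsf15 and Cxcl10 are products of inflammatory activation. Il6, the interleukin-6 gene, stood at 3.30 in set 1 and 2.65 in set 2 with Ecrg4(133-148), against 3.09 and -0.25 with Fc. Only the set 2 Fc array was low among these 4, and the set 2 PBS array was lower still, at -2.11, against 2.26 in set 1. Acod1, the enzyme that makes itaconate, was at 5.94 and 4.68 against 6.12 and 1.58, again with a single low array. The early activation marker Cd69 was at 0.93 and -0.42 against 0.74 and -3.37.

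For these 3 genes the set 2 array of Ecrg4(71-132), which is set against the same Fc arrays, also stood high, at 5.66 for Il6, 6.31 for Acod1 and 1.1 for Cd69. Tnfsf15, a TNF family cytokine, was higher in set 2 than in set 1 with every treatment. It was at -1.05 and 2.80 with Ecrg4(133-148), against -1.23 and 0.67 with Fc. Its set 2 Ecrg4(71-132) array stood higher still, at 6.36. Cxcl10, a chemokine for T cells, was at 6.33 and 1.38 against 6.6 and -0.75, so that its level dropped far more between sets than it differed between these treatments in either. Its set 2 Ecrg4(71-132) array was at 3.13.

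Clu, Cpe and Sparc encode the chaperone clusterin, carboxypeptidase E and a matrix glycoprotein. Clu was at 3.46 and -0.36 with Ecrg4(133-148), against 3.48 and -2.76 with Fc. Within set 2 its levels with Ecrg4(71-132) and PBS were -2.53 and -2.66, so the Ecrg4(133-148) array alone stood above the others. Cpe was at 4.14 and 0.30 against 4.17 and -1.97, and both of its probes gave 2.26 or more in set 2. Sparc was at 5.50 and 1.44 against 5.81 and -1.14, but its other probe gave -0.23 in set 2. Sec14l2, a lipid-binding protein gene, was at -2.45 and -1.04 against -2.67 and -3.61, and Prr36 at -1.79 and -0.90 against -1.96 and -3.34. In both genes the set 2 Ecrg4(133-148) array was the highest of all 8.

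Of 9 kept astrocyte markers, from 12 listed, 5 were higher with Ecrg4(133-148) in set 2, against 8577 of all 19117 genes, and 4 were lower. In set 2, 7 of the 9 were measured with Ecrg4(133-148) and 7 with Ecrg4(71-132), against 3 with Fc, while all 9 were measured on both set 1 arrays. Gfap, the intermediate filament gene of astrocytes, was at 1.11 and -3.66 with Ecrg4(133-148), against 1.14 and -5.80 with Fc. Atp1b2, a sodium pump subunit, was at 1.76 and -2.71 against 1.74 and -6.06. S100b, Aqp4 and Slc1a3 were higher by 1.75, 1.23 and 0.97 in set 2, and none of these 5 differed by more than 0.07 in set 1. Slc1a3 did not clear background on either array of the set 2 pair. Gfap, Atp1b2, S100b and Aqp4 did not clear it with Fc in set 2, so their differences there are uncertain. On the set 2 Ecrg4(71-132) array Aqp4 and Slc1a3 stood higher still, at -2.87 and -3.89. The other 4 kept markers, Aldoc, Aldh1l1, Fgfr3 and Slc1a2, were at differences of -0.06, -0.09, -0.52 and -0.21 in set 2. The 3 astrocyte markers measured on all 4 arrays had a median of -0.09 in set 2, and none was more than 2-fold higher.

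The summed signal of the 9 astrocyte markers, most of it from Aldoc, was 33.4 and 74.0 with Ecrg4(133-148), against 33.9 and 76.9 with Fc. Of 10 fibroblast and mural cell markers 6 were kept. All 6 were higher in set 2 and 5 lower in set 1, against 8577 and 8983 of all 19117 genes. Only 3 were measured on all 4 arrays, and in set 2 the Fc array measured 3 and the Ecrg4(133-148) array 5. Summed signals of the 6 were 33.1 and 2.29 with Ecrg4(133-148), against 41.8 and 1.91 with Fc. The part of these cell type markers in the result was not tested. Among the 289 genes higher in set 2 only, 87 (30.1%) were more than 4-fold higher in set 1 than in set 2 between the PBS arrays, against 2.77% of all genes. Without the genes more than 4-fold apart between the PBS arrays in either direction, 192 of the 289 remained.

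**Figure D3:**
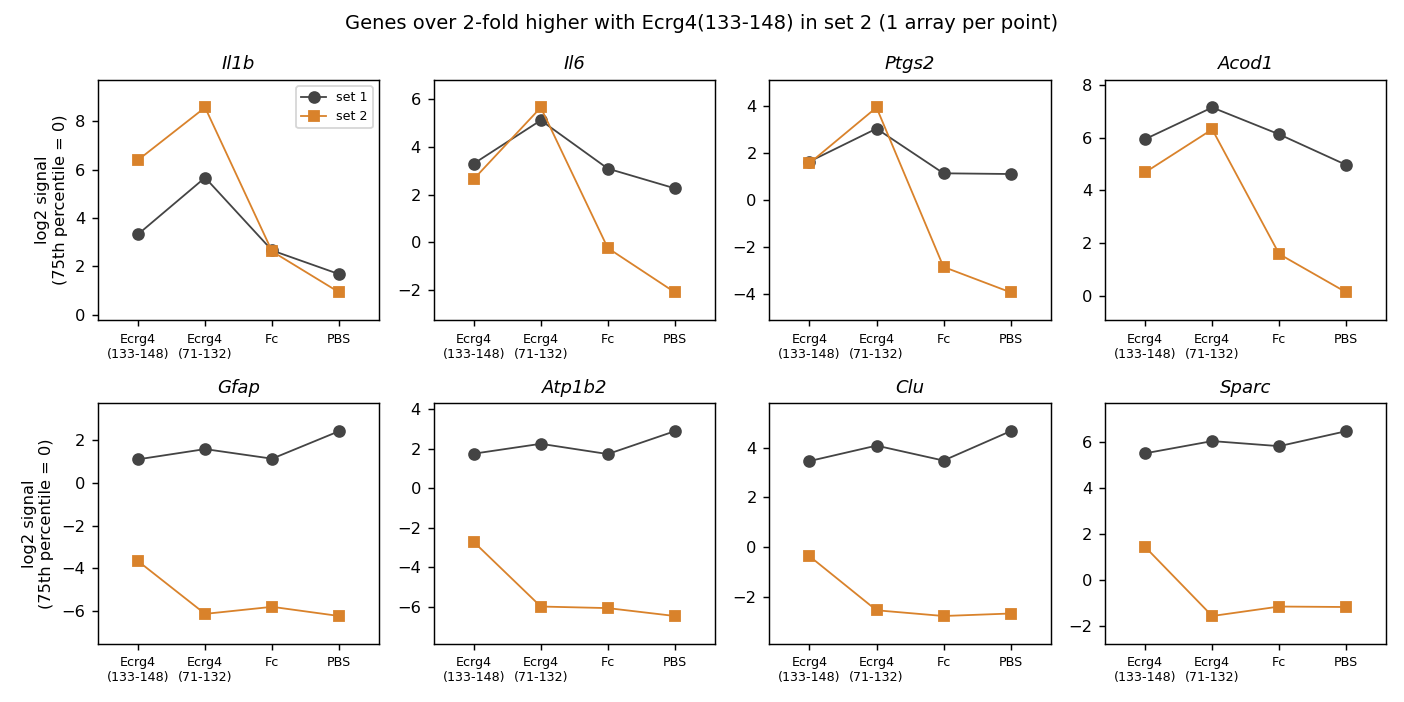
Log2 level of 8 genes more than 2-fold higher with Ecrg4(133-148) than with Fc in set 2, on all 8 arrays, with the arrays of a set joined. In the upper row the set 2 arrays of both fragments stand above those of Fc and PBS. In the lower row the set 2 array of Ecrg4(133-148) stands above the other set 2 arrays, and every set 1 array lies higher. Gfap and Atp1b2 did not clear background with Fc in set 2. Another Sparc probe gave a difference of -0.23 in set 2.

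Of the 205 genes lower in set 2 only, the set 2 Fc array was the highest of all 8 in 137 (66.8%). In 55 (26.8%) the set 2 PBS array also lay more than 2-fold above that of Ecrg4(133-148). These genes were chosen by the set 2 Fc array lying above that of Ecrg4(133-148), which favours such ranks. The shares over all genes were not counted. Celf6, an RNA-binding protein gene, was at -4.07 and -3.81 with Ecrg4(133-148), against -4.31 and -0.49 with Fc. The other 7 arrays, PBS and Ecrg4(71-132) included, lay between -5.29 and -3.81. Pgf, placental growth factor, was at -2.95 and -3.04 against -2.78 and -1.43, and Pcp2, a Purkinje cell protein gene, at -2.47 and -2.29 against -2.17 and -0.44, likewise with the set 2 Fc array highest of all 8. Ddb2, a DNA damage recognition gene, was at -1.23 and -1.35 against -0.94 and 0.27, and the set 2 PBS array was also high, at -0.28. For Akap17b and Cacna1a the brightest probe gave -2.09 and -1.63 in set 2 and another probe 0.41 and 0.10. Mageb1, Usp17la, Gstcd and Neurl3 were lower in set 2 by -2.06, -1.76, -1.51 and -1.43. For Mageb1 and Usp17la the set 2 PBS array was high too, at -1.46 and -1.31, and for Gstcd another probe gave -0.64.

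The set 1 Ecrg4(133-148) array was the highest of all 8 in 21 of the 36 genes higher in set 1 only (58.3%). It was the lowest in 24 of the 47 lower ones (51.1%). Choosing these genes by that array against Fc favours such ranks. Apoc3, an apolipoprotein gene, was at -0.65 in set 1 and -2.71 in set 2 with Ecrg4(133-148), against -2.91 and -2.88 with Fc, and the other 4 arrays lay between -3.31 and -2.75. Uvssa, Smco1 and Elapor1 were higher in set 1 by 1.67, 1.33 and 1.33, while Sfn, Pifo and Actg2 were lower by -1.23, -1.16 and -1.15. For Sfn the set 1 Ecrg4(71-132) array stood highest, at -0.35.

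The cytokine, chemokine and NF-kB lists had higher medians in set 2 than in set 1. Over all 19117 genes the median difference was 0.01 in set 1 and -0.02 in set 2. Of 24 pro-inflammatory cytokine genes 18 were kept, and 10 of these (55.6%, against 2.12% of all genes) were more than 2-fold higher in set 2, against 1 in set 1 (0.450% of all genes). The list median was 0.07 in set 1 and 1.24 in set 2. Some 12 members were higher in both sets (66.7%, against 28.5% of all genes), and 13 were measured on all 4 arrays. Members measured on the fragment array but not on the Fc array, such as Csf2 and Csf3, were bound to differ, so the count and the median are uncertain. Among the 13, 6 were more than 2-fold higher in set 2 (46.2%, against 1.07% of the 17308 genes measured on all 4 arrays) and none in set 1. Their median difference was 0.09 in set 1, compared with 0.37 in set 2.

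Il1b encodes interleukin-1 beta, a cytokine that starts fever and local inflammation. It was at 3.33 and 6.40 with Ecrg4(133-148), against 2.66 and 2.62 with Fc. The groups did not overlap, but the fragment arrays were far apart, and the mean difference of 2.23 had an SE of 1.31 (limma, adjusted p = 1). Tnf was at 4.69 and 5.62 against 4.32 and 3.19, and Il1a at 1.28 and 3.63 against 0.73 and 1.19. Both were higher in both sets with no overlap, by 0.37 and 0.55 in set 1 and by 2.43 and 2.44 in set 2. Ifnb1, interferon beta, was higher by 1.09 and 0.90, but was not well above background in set 2.

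Some cytokine genes ran the other way. Il33 differed by -0.53 and -0.42, Il15 by -0.41 and -0.51 and Il18 by -0.28 and -0.18, each lower with Ecrg4(133-148) in both sets.

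Ptgs2, the inducible cyclooxygenase that starts prostaglandin synthesis, was at 1.65 and 1.58 with Ecrg4(133-148), against 1.15 and -2.83 with Fc. Its difference of 4.41 in set 2 came with 0.50 in set 1. Hpgd, which degrades prostaglandins, was at -2.10 and -4.61 against -1.53 and -2.66. It was lower with the fragment in both sets, although its set 2 fragment value was not well above background.

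Chemokine genes had a median difference of 0.05 in set 1 and 0.77 in set 2 over 22 of 27 members. Of the 22, 10 were higher in both sets (45.5%, against 28.5% of all genes). Cxcl2 and Cxcl3, which attract neutrophils, were at 2.27 and 2.41 in set 1 and 4.03 and 3.78 in set 2 with Ecrg4(133-148), against 1.66 and 1.58 in set 1 and 1.21 and 1.04 in set 2 with Fc. Neither gene overlapped between the groups. Ccl2 was higher by 0.39 and 0.90 and Ccl4 by 0.38 and 1.08. Cxcl1 was -0.74 in set 1 and 3.30 in set 2, where its Fc signal did not clear background, and Cxcl5 was -0.18 and -1.71.

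Of 30 NF-kB subunit and feedback genes 28 were kept and all 28 were measured on every array of the comparison. In set 2, 27 were higher with Ecrg4(133-148), against 8577 of all 19117 genes, with a median of 0.66. Among the 28, 7 were more than 2-fold higher (25.0%, against 2.12% of all genes and 1.07% of those measured on all 4 arrays). In set 1 the median was 0.02, and 16 were higher and 12 lower, against 10134 and 8983 of all 19117 genes. None passed 2-fold in set 1. Traf1, a TNF receptor signalling adaptor, was at 0.92 and -0.31 against 0.56 and -2.55. Tnfaip3 and Nfkbia, which encode the inhibitors A20 and IkB alpha, differed by 0.19 and 0.14 in set 1 and by 1.29 and 0.78 in set 2. The exception in set 2 was Cyld, a deubiquitinase that restrains the pathway, at -0.23 and -0.42, but its other probe gave 0.01 in set 2.

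**Figure D4:**
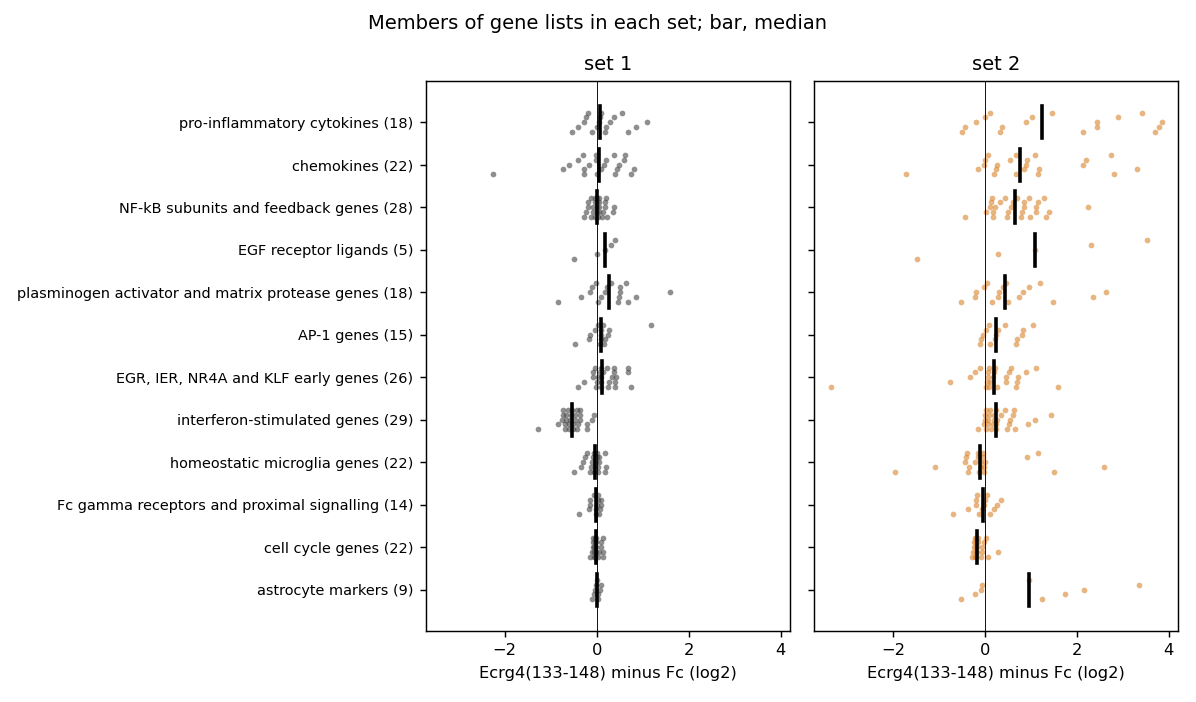
Log2 difference Ecrg4(133-148) minus Fc of each kept member of 12 gene lists in set 1 (left) and set 2 (right), with the number of members in brackets and the list median as a bar. Cytokine, chemokine and NF-kB medians were 0.07, 0.05 and 0.02 in set 1 and 1.24, 0.77 and 0.66 in set 2, and interferon-stimulated genes had medians of -0.54 and 0.23.

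The lists that hold Fosl1 and Serpinb2 had closer medians in the sets. The 15 AP-1 genes had medians of 0.09 and 0.25 and 10 were higher in both sets (66.7%, against 28.5% of all genes). Junb was higher by 0.26 and 0.81, Jund by 0.24 and 0.68 and Maff by 0.18 and 0.83, whereas Fos was at -0.15 and -0.10 and Jun at 0.03 and -0.08. Of 26 EGR, IER, NR4A and KLF early genes 17 were higher in both sets (65.4%, against 28.5%), with medians of 0.12 and 0.19. Egr1 was higher by 0.75 in set 1 and 0.07 in set 2.

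Plasminogen activator and matrix protease genes had medians of 0.27 and 0.43 over 18 members, and 10 were higher in both sets (55.6%, against 28.5% of all genes). Of the 18, 4 were more than 2-fold higher in set 2 (22.2%, against 2.12% of all genes) and 1 in set 1. Among the 15 measured on all 4 arrays, 2 were more than 2-fold higher in set 2 (13.3%, against 1.07% of all genes so measured). Of the 18, 7 differed in sign between the sets. Mmp3, stromelysin 1, differed by -0.35 and 2.36 but did not clear background with Fc in set 2, and Timp3, a metalloprotease inhibitor, by -0.84 and 1.49. Plaur, the urokinase receptor, was at 6.09 and 7.15 with Ecrg4(133-148), against 5.58 and 6.84 with Fc. Collagenase 3, encoded by Mmp13, was at 3.35 and 4.67 against 2.68 and 4.16, and Mmp10, stromelysin 2, differed by 0.85 and 0.83 but did not clear background with Fc in set 2. In Plaur, Mmp13 and Mmp10 the sets gave like differences, below 2-fold, while the levels differed more between the sets than between the treatments.

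Homeostatic microglia genes had medians of -0.04 and -0.11, and 10 of 22 were lower in both sets, against 30.6% of all genes. In set 2, 3 were more than 2-fold higher (13.6%, against 2.12% of all genes) and 2 were more than 2-fold lower. Among the 19 measured on all 4 arrays, 2 were more than 2-fold higher (10.5%, against 1.07% of all genes so measured). The extremes in set 2 were Sparc at 2.58, whose other probe gave -0.23, and Mef2c at -1.96. Mef2c was not well above background with Ecrg4(133-148) in set 2. Gpr34, a receptor for lysophosphatidylserine, was at 0.65 and -0.12 with Ecrg4(133-148), against 1.16 and 0.97 with Fc, with no overlap. P2ry12, the purinergic receptor that guides microglial processes, differed by -0.21 and -0.43, Csf1r by -0.11 and -0.03 and Cx3cr1 by -0.01 and 0.91. Of 14 genes of Fc gamma receptors and their proximal signalling none passed 2-fold in either set, with medians of -0.01 and -0.04. Few genes did so at all: 2.12% were more than 2-fold higher and 1.67% lower in set 2, and 0.45% and 0.445% in set 1. Cell cycle genes were lower in both sets in 14 of 22 members, against 30.6% of all genes, with medians of -0.02 and -0.18.

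Among the 26 lists with 5 or more kept members, the interferon-stimulated genes had the highest share of members whose sign differed between the sets. Their promoters often carry an interferon response element, and some of the cytokine and protease genes above are known targets of NF-kB and AP-1. The stretches below show such letters in the windows of 4 genes described here, from 250 bases before to 50 after the transcription start in RefSeq on GRCm38.p6. Matches are in capitals, the strand is that of the gene, and each stretch keeps 30 bases on either side of its matches. The first pair holds GAAA, any 2 bases and GAAA, the core of the element, read on either strand, with the matches of Isg15 overlapping one another. Il6 holds GGG, any 2 bases and TTTCC, a kappaB site, and Serpinb2 holds TGANTCA, an AP-1 site.
Ifit1, chr19:34640755-34640843, plus strand: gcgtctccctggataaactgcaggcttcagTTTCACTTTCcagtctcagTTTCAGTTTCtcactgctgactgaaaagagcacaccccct
Isg15, chr4:156200845-156200926, minus strand: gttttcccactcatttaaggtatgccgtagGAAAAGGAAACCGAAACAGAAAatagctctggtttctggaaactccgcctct
Il6, chr5:30013040-30013109, plus strand: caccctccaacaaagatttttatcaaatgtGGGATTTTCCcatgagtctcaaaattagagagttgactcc
Serpinb2, chr1:107511299-107511365, plus strand: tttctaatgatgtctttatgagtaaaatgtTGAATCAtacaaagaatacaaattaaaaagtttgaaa

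The interferon element core occurred, on either strand, in the windows of 14 of the 22 interferon-stimulated genes that have one (63.6%), against 3.99% of the 27025 genes with a window. It occurred in 2 of 15 chemokine genes (13.3%), 1 of 22 NF-kB genes (4.55%) and 0 of 12 cytokine genes. The kappaB letters occurred in 6 of 22 NF-kB genes (27.3%), 4 of 15 chemokine genes (26.7%), 2 of 12 cytokine genes (16.7%) and 1 of 22 interferon-stimulated genes (4.55%), against 1.89%. TGANTCA occurred in 6 of 22 interferon-stimulated genes (27.3%), 6 of 22 NF-kB genes (27.3%), 3 of 12 cytokine genes (25.0%) and 3 of 15 chemokine genes (20.0%), against 8.97%. These are matches of letters, not measured binding sites.

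All 29 kept interferon-stimulated genes, of 32 listed, were lower with Ecrg4(133-148) than with Fc in set 1, against 8983 of all 19117 genes. Their differences ran from -1.27 to -0.06, with a median of -0.54. In set 2, 26 of the 29 were higher, against 8577 of all 19117 genes, with differences from -0.14 to 1.44 and a median of 0.23. The sign differed between sets in 89.7% of these genes, against 41.0% of all genes. None was higher in both sets, and 2 (6.90%, against 2.12%) were more than 2-fold higher in set 2. Dhx58 and Oas1g were lower in both sets, as was Ifi44 by less than 0.01 in set 2, where neither array of the pair was well above background.

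Ifit1, an antiviral protein that binds foreign RNA caps, was at 2.47 and -0.96 with Ecrg4(133-148), against 3.09 and -2.05 with Fc. The ubiquitin-like modifier gene Isg15 was at 5.91 and 3.60 against 6.51 and 3.07. Gbp5, a guanylate-binding protein gene, was at 1.47 and -0.21 against 2.20 and -1.66. All 3 were higher on set 1 arrays than on set 2 arrays of the same treatment.

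The level of the Fc arrays relative to PBS also changed with the set for this list. The median level of the 29 genes in set 1 was 2.53 with Ecrg4(133-148) and 3.10 with Fc, with PBS at 2.29. In set 2 it was 0.67 with Ecrg4(133-148) and 0.66 with Fc, with PBS at 0.82. In set 1 the Ecrg4(133-148) median thus lay between those of PBS and Fc, and in set 2 both lay below PBS.

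**Figure D5:**
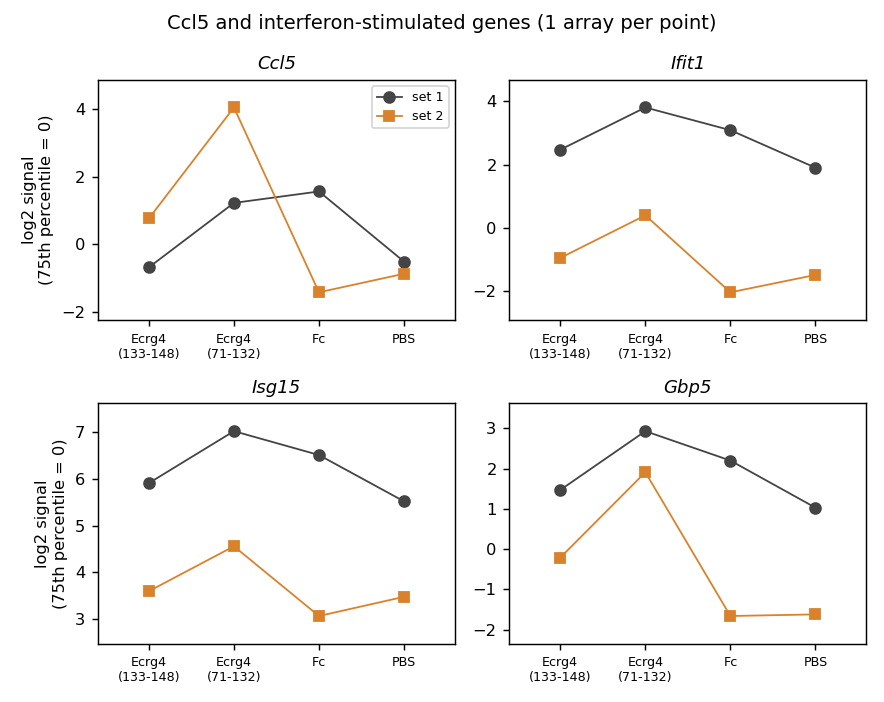
Log2 level of Ccl5, Ifit1, Isg15 and Gbp5 on all 8 arrays, with the arrays of a set joined. In set 1 each gene is lower with Ecrg4(133-148) than with Fc, and in set 2 each is higher.

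More than 2-fold in opposite directions in the sets were 7 genes (0.0366%), 4 of them with a symbol, and only Ccl5 was measured on all 4 arrays. Ccl5, a chemokine for T cells and monocytes, was at -0.69 and 0.76 with Ecrg4(133-148), against 1.56 and -1.43 with Fc. Both fragment arrays lay between the Fc arrays, with differences of -2.25 in set 1 and 2.19 in set 2 and a mean of -0.03 (SE 1.34, limma, adjusted p = 1). Gbp4, another guanylate-binding protein gene, followed the same course, at -1.58 and -4.52 against -0.55 and -5.84, but was not well above background in set 2. Nags, the enzyme that makes N-acetylglutamate, ran the other way at 1.47 and -1.06 and was dim in set 1, and Pitpnm3 was not well above background on any of the 4 arrays.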

How the data were processed

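Spot intensities on a linear scale were deposited as scanner files, background-subtracted, and the submitters' processing notes name Agilent Feature Extraction, version 11.0.1.1. A deposited log2 table follows the same signals shifted to a 75th percentile near 0 (r = 1 with the scanner values, column medians -4.47 to -4.20) and served as an alternative. From the intensities, log2 signal minus each array's 75th percentile was computed without outlying spots (104 probes lost all theirs on some array), and spots of a probe were averaged. No spot was saturated. Of 55681 probes 28026 were named through RefSeq accessions in a GRCm38.p6 table and 27655 kept the file's name. The filter kept 25247 probes that cleared background on each array of some group, and the brightest stood for its gene, which left 19117 genes, 12594 with a symbol, of which 17308 were measured on all 4 arrays compared. A limma model (3.58.1, R 4.3.3) with group means took in all 8 arrays, used a Benjamini-Hochberg threshold of 0.05 and was tested on simulated arrays. SEs are from this fit unless a block is named, and they include the gap between sets. The differences between sets correlated at 0.78 to 0.86 across genes between groups, so set numbers were taken to pair arrays. Where a group was not well above background on any array, the fold is a bound, written "at least": the brighter group's mean against the mean, per array, of the higher of the dim probe's signal and the lowest signal well above background. List medians use signals as measured.

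The comparison, the 28 gene lists and the naming rule were chosen with earlier results of these data known. The rule names genes past 2-fold in both sets, the 10 largest in each direction in set 2 only and the 4 largest in set 1 only (both among genes with a symbol measured on all 4 arrays), opposite movers, the 5 smallest limma p-values in each direction, 26 response and microglia genes, and the brightest and most extreme member of each list. Other list members are given as examples. Precision is limited by the number of arrays. Alternatives covered background correction, scaling, filters, probe choice, thresholds, the deposited table, the block and left-out arrays.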

Additional observations from a re-analysis of the deposited data

Results flagged for a closer look

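The effect of Ecrg4(133-148) over Fc ran in opposite directions in the sets for these results, each on 1 array per group and set, and the difference between the sets was not tested. Ccl5 differed by -2.25 on the log2 scale in set 1 and 2.19 in set 2. Gbp4 differed by -1.03 and 1.33, and Nags by 1.47 and -1.06, both with signals not well above background on some arrays. The median of the interferon-stimulated genes was -0.54 in set 1 and 0.23 in set 2.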

How the results depend on the processing

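Limma called 0 genes under every alternative, including the adjusted threshold of 0.10 and each array left out in turn (there a lone array is assumed to vary like the other groups), with 33 to 1334 genes at an unadjusted p under 0.05. With the set as a replicate block it called 0, with 1006 at an unadjusted p under 0.05, so the pairing changed no call. Leaving out an array gives no value for counts that need both sets. The counts are listed as higher in both sets, lower in both, higher in set 2 only, lower in set 2 only, higher in set 1 only, lower in set 1 only and opposite. They were 10, 5, 289, 205, 36, 47 and 7, and became 1, 0, 130, 110, 20, 16 and 1 with normexp background correction. They were 2, 0, 139, 80, 21, 15 and 1 for genes well above background on the 4 arrays, and 45, 43, 537, 487, 1037, 687 and 99 with no filter. A 1.5-fold threshold gave 58, 74, 530, 492, 124, 221 and 56. The count lower in both sets was 3 with quantile normalization, 2 after centring on the median and 3 in the deposited table. Allowing 1.5-fold in the other set gave 59 higher in set 1 only. Chosen after seeing the data, 1.5-fold on measured genes gave 30 higher and 28 lower in both sets, and leaving out genes over 4-fold apart between the PBS arrays gave 192 higher in set 2 only. The other 29 counts over the sets stayed within 1.5 times. With no filter the order of the sets turned, with more genes in set 1 only than in set 2 only. Of list values, 161 stayed within the spread and 28 did not, and of single-set gene differences 1931 did and 129 did not. List medians near 0 changed sign: that of the NF-kB genes in set 1 was 0.02 and became -0.01 with quantile normalization, and that of the Fc gamma receptor genes in set 2 was -0.04 and became 0.02 after centring on the median. Signal over background limits the dim genes, since 136 of the 289 and 80 of the 205 cleared it on all 4 arrays. The interferon-stimulated genes had 0 members higher in set 1 and 25 to 28 higher in set 2 under the 7 processing alternatives.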
